A study of Homo sapiens with 28 samples.

Results

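The expression of 43 genes of the cell cycle was followed in human H9 embryonic stem (ES) cells and in the cells made from them, wild type or without SOX1. The genes were taken by symbol from a table of 58219 genes and fall into 3 classes: 18 genes of the G1/S step and S phase, 19 genes of G2 and mitosis, and 6 D cyclins and inhibitors of cyclin-dependent kinases. Each symbol matched 1 gene, and all 43 passed the filter on low values that 27912 genes passed.

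In the cell cycle, cyclin D and then cyclin E kinases release E2F factors from the retinoblastoma proteins, and E2F switches on the genes that load the replicative helicase, supply nucleotides and copy DNA. Genes of G2 and mitosis rise later, largely through CCAAT boxes bound by NF-Y and cell-cycle homology region (CHR) elements bound by the DREAM and MuvB complexes. Neural progenitors cycle until they leave for neuronal differentiation, which inhibitors such as p21 (CDKN1A), p27 (CDKN1B) and p57 (CDKN1C) accompany.

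H9 is an established human ES cell line. Poly(A) RNA was sequenced from wild-type cells (WT) and SOX1-/- cells (KO), which lack the SoxB1 transcription factor SOX1 of early neural cells. The groups were WT and KO ES cells (day 0) and, on days 4 and 8 of neural differentiation, WT and KO cells under each of the culture labels IWP2, CT0.4 and CT1.0. Each of the 14 groups had 2 libraries, 28 in all, with the numbers 1 and 2 for WT and 26 and 48 for KO. IWP2 is known as an inhibitor of WNT secretion, and the labels do not spell out CT or give a unit for its numbers. The numbers were read as lines. No label says whether they mark clones or separate cultures, so each p below rests on a spread between libraries that may be technical. In the main fit this spread is pooled over all 14 groups, so it is not that of the groups compared alone.

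SOX1 itself stood at 72.1 to 97.99 TPM in the 4 WT CT1.0 libraries and at 0.705 to 3.08 TPM in the 4 KO CT1.0 libraries. TPM is a level per transcript length, scaled to the same total in each library. Under IWP2 on day 4 the genotypes overlapped, at 0.907 and 0.990 TPM in WT and 0.410 and 1.14 TPM in KO, and WT ES cells had only 0.177 and 0.264 TPM. Pluripotency markers summed to between 4929 and 5353 TPM in ES libraries and to at most 1260 TPM afterwards, while neural progenitor markers rose from at most 356 TPM to at least 703 TPM. The 4 WT CT0.4 and CT1.0 libraries of day 4 stood apart from the rest, with 17694 to 18233 genes at 1 TPM or more against 18876 to 20338 in the other 24. Their median-ratio size factors, a check on scaling taken from the median gene, were 0.819 to 0.926, against 0.920 to 1.14 in the others, and for results that rest on them the class counts are given on both scales, with the scaled value of a named gene where its call changed.

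Promoters are shown first because both large classes carry known promoter words. RefSeq windows (GRCh38.p14) from 250 bases before to 50 bases after a start were found for 33 of the 43 genes, as 45 windows, some of 1 gene overlapping. MCM4, MCM5, CCNE2, AURKA, BIRC5, TPX2, UBE2C, CCND1, CCND2 and CDKN1C had none. The words searched on both strands were TTTCCCGC, TTTGGCGC, TTTCGCGC and TTTGCCGC for E2F, TTTGAA and TTCGAA for the CHR, and CCAAT. The 100 bases before the start are printed for up to 2 genes a class whose stretch holds such a word, those with the largest KO against WT change among the genes that passed the test below, with every match in capitals. Where a gene had several windows, the one with the most bases in matches was printed.

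UHRF1 (S phase, chr19:4909401-4909500, + strand): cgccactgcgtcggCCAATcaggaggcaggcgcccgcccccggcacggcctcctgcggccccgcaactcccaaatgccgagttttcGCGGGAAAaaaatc
MCM7 (S phase, chr7:100101398-100101497, - strand): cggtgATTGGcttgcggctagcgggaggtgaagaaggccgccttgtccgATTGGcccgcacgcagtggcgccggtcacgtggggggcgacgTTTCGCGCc
CDC20 (mitotic, chr1:43358881-43358980, + strand): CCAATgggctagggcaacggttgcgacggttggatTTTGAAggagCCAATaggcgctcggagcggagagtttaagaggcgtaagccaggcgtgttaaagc
PLK1 (mitotic, chr16:23678789-23678888, + strand): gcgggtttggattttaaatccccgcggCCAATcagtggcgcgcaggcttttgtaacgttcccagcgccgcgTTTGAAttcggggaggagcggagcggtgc
CCND3 (D cyclin, chr6:41939206-41939305, - strand): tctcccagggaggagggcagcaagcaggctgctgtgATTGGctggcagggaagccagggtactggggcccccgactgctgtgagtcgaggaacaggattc

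The printed windows of UHRF1 and MCM7 carry an E2F word close to the start and CCAAT words. Those of CDC20 and PLK1 carry a CHR word and CCAAT words. UHRF1 and MCM7 have further windows, and the printed ones were picked for their matches. The other MCM7 windows hold no E2F word, and a further UHRF1 window holds none of the words. An E2F word was in 10 of the 15 S-phase genes with a window and in 1 of the 15 mitotic genes, CDK1. By windows that was 47.8% of 23 and 11.8% of 17, against 3.31% of all 35116 promoters of the same length. The CHR words were in 2 S-phase genes and 10 mitotic genes, or 8.70% and 64.7% of windows against 16.4% of all promoters. CCAAT was in 10 S-phase and 13 mitotic genes, or 69.6% and 88.2% of windows against 34.6% of all promoters. Among the D cyclins and inhibitors CCND3, CDKN1A and CDKN1B had windows, which held no E2F or CHR word. A match of letters describes the window and shows no binding.

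All 43 genes were detected in all 28 libraries, from 1.01 TPM for CDKN1A in a KO ES library to 442 TPM for UBE2C in a WT IWP2 library of day 8. The ratio of the highest to the lowest group mean ran from 1.85 (PCNA, the replication clamp) to 5.33 (CCNE2, a cyclin E) in the S-phase class and from 1.57 (TPX2, a spindle assembly factor) to 4.63 (CENPE, a kinetochore motor) in the mitotic class. KO CT1.0 cells of day 8 were the lowest group for 10 of the 18 S-phase genes, and WT ES cells for 5. WT IWP2 cells of day 8 were the highest group for 13 of the 19 mitotic genes, and WT CT1.0 cells of day 4 the lowest for 7. On the median-ratio scale KO CT1.0 of day 8 was lowest for 7 S-phase genes. There WT IWP2 of day 8 was highest for 7 mitotic genes in place of 13, and KO CT0.4 of day 8 was lowest for 12, so both ends of the mitotic order depend on the scale. The map of levels relative to WT ES cells shows these patterns gene by gene.

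**Figure D1:**
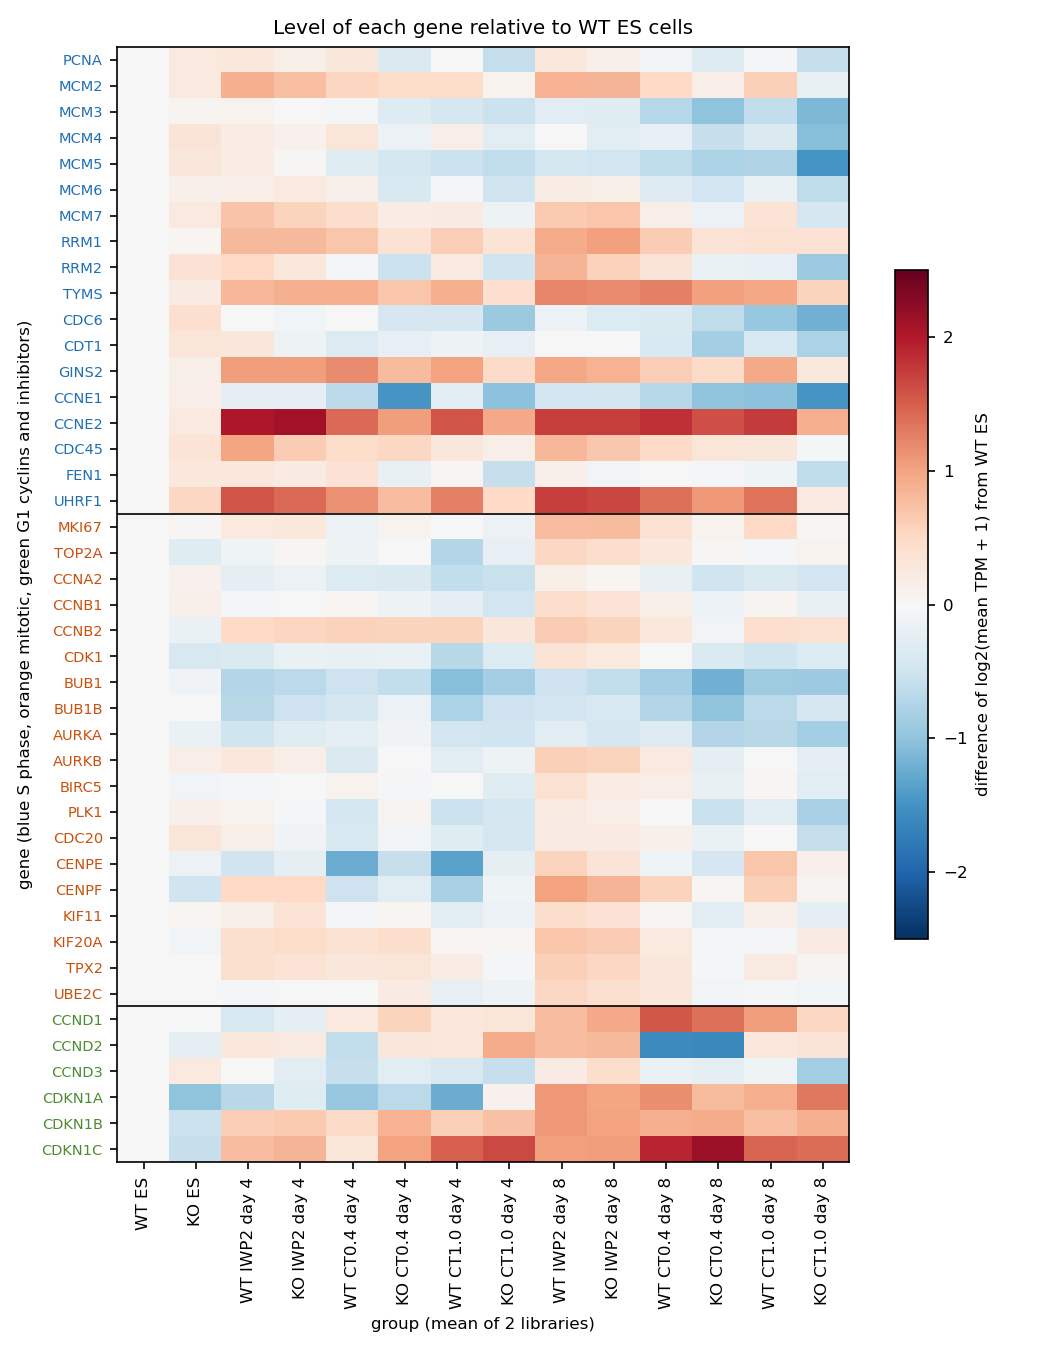
Level of each of the 43 genes (rows, coloured by class) in the 14 groups (columns, mean of 2 libraries) as the difference of log2(mean TPM + 1) from WT ES cells. CCNE2, UHRF1, GINS2 and TYMS are above WT ES cells in all other groups, BUB1 is below them, and CCND2 is lowest in the CT0.4 groups of day 8.

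Summed over the 18 genes, S-phase TPM, given here from the lower to the higher library, was 1779 and 1964 in WT ES libraries and 2160 and 2274 in KO ES libraries. Under IWP2 it was 2515 and 2533 (WT) and 2274 and 2445 (KO) on day 4, then 2436 and 2443 (WT) and 2082 and 2515 (KO) on day 8. Under CT0.4 it was 2187 and 2404 (WT) and 1723 and 1858 (KO) on day 4, then 1932 and 1999 (WT) and 1461 and 1764 (KO) on day 8. Under CT1.0 it was 2013 and 2116 (WT) and 1469 and 1625 (KO) on day 4, then 1863 and 1872 (WT) and 1074 and 1431 (KO) on day 8. KO lay above WT in ES cells and below it under both CT labels on both days and under IWP2 on day 4, and the genotypes overlapped under IWP2 on day 8. After median-ratio scaling the same 6 of the 7 settings had no overlap, with 2355 and 2586 (WT) and 1429 and 1643 (KO) under CT1.0 on day 4. Summed mitotic TPM under CT1.0 was 1651 and 1692 (WT) and 1644 and 1842 (KO) on day 4, where the genotypes overlapped, then 1941 and 2062 (WT) and 1768 and 1898 (KO) on day 8, where they did not. After scaling this turned: the day 4 sums were 1979 and 2017 (WT) and 1663 and 1792 (KO), without overlap, and the day 8 sums 1880.4 and 2055 (WT) and 1920.3 and 1979.6 (KO), with overlap. In these bulk samples, fewer cycling cells and less RNA per cell cannot be told apart.

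**Figure D2:**
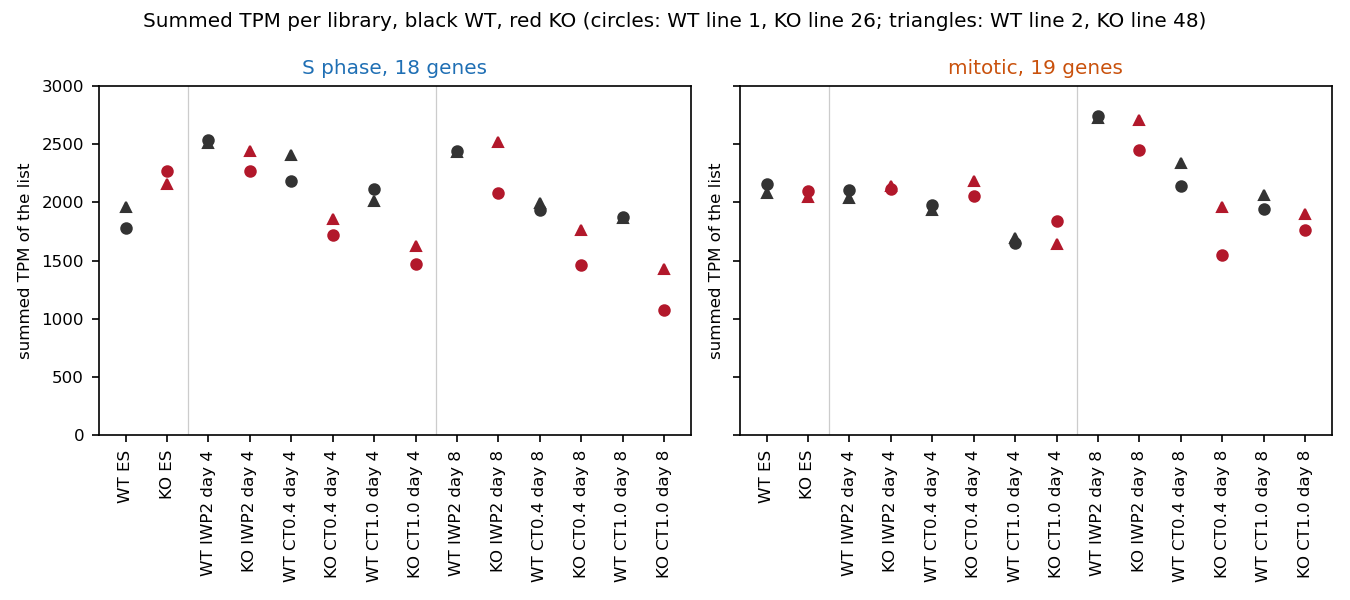
Summed TPM of the 18 S-phase genes (left) and the 19 mitotic genes (right) in each library, by group (black WT, red KO, circles line 1 or 26, triangles line 2 or 48). The KO CT1.0 libraries of day 8 are the lowest S-phase sums, at 1074 and 1431, and the IWP2 groups of day 8 hold the highest mitotic sums, up to 2746.

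KO and WT were first compared in ES cells and under IWP2, where no gene of the 3 classes passed the limma test at adjusted p under 0.05. From here on a signed value is a difference of log2(TPM + 1), KO minus WT unless stated, and pairs of TPM values are the libraries in the order of their numbers. In ES cells all 18 S-phase genes were higher in KO, by 0.05 to 0.54 on the log2(TPM + 1) scale with a median of 0.25. The mitotic median was -0.01, and the median of all genes tested was 0.00. The call rate over all genes was 0.219%, and 5 S-phase genes were higher at an unadjusted p under 0.05, as were 5.54% of all genes. MCM4, a subunit of the replicative helicase and the most abundant of the S-phase genes, stood at 313 and 320.2 TPM in WT and 412 and 384 TPM in KO, a difference of 0.33 (SE 0.11, adjusted p = 0.266). PCNA stood at 271 and 296 TPM in WT and 349.7 and 319 TPM in KO, with 0.24 (SE 0.14, adjusted p = 0.596). The KO libraries were above both WT libraries for both genes, without passing the test. Such a separation of 2 from 2 libraries is weak evidence, since a permutation test would give it p = 0.333. The share of all genes so separated was not counted, for these or the other statements on overlap.

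Under IWP2 the KO against WT medians of the S-phase class were -0.07 on day 4 and -0.05 on day 8, and those of the mitotic class 0.05 and -0.09. The call rates over all genes were 0.0430% and 0.0609%, and 1 S-phase gene was lower at an unadjusted p under 0.05 on each day, as were 4.40% and 2.21% of all genes. UBE2C, the ubiquitin-conjugating enzyme of the anaphase-promoting complex and the most abundant gene of the 43 by its mean, had 429.9 and 442 TPM in WT and 389.7 and 413 TPM in KO on day 8. Its difference was -0.12 (SE 0.09, adjusted p = 1), and both KO libraries were below both WT libraries without passing the test.

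On day 4 under CT0.4, part of the S-phase class was lower in KO and 1 mitotic gene was higher. Of the S-phase class 5 of 18 fell and 0 rose, with a median of -0.38, where 0.566% of all genes tested were lower and 3.67% higher. CCNE1, a cyclin E that activates CDK2 at the G1/S step, had 18.8 and 21.4 TPM in WT and 10.8 and 11.02 TPM in KO. It fell by 0.82 (SE 0.21, adjusted p = 0.0333), with both KO libraries below both WT libraries. PCNA had 334 and 356 TPM in WT and 209 and 233 TPM in KO, a change of -0.64 (SE 0.14, adjusted p = 0.0196). FEN1, which trims flaps of Okazaki fragments, changed by -0.55 (SE 0.13, adjusted p = 0.0217), and the helicase subunits MCM6 and MCM4 by -0.50 (adjusted p = 0.0394) and -0.43 (adjusted p = 0.0353). The abundant MCM7 and MCM3 were at -0.26 (adjusted p = 0.308) and -0.28 (adjusted p = 0.187) and passed only after the scaling described next, at -0.46 and -0.48.

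In the mitotic class PLK1, the kinase of mitotic entry and spindle assembly, was the only gene of 19 that passed in that comparison. It had 63.8 and 75.1 TPM in WT and 103 and 95.3 TPM in KO, 0.51 (SE 0.11, adjusted p = 0.0168), with KO above WT in both libraries. CCND2, a D cyclin that activates CDK4 and CDK6, rose from 17.8 and 23.5 TPM in WT to 45.1 and 34.05 TPM in KO, 0.91 (SE 0.16, adjusted p = 0.00476). The median of all genes lay at 0.13 as deposited and at 0.00 after median-ratio scaling, on which 9 S-phase genes fell (median -0.57). On that scale PLK1 was at 0.32 (adjusted p = 0.0729), and CCNB1, a mitotic cyclin, fell instead, by 0.38. All genes split into 1025 higher and 158 lower as deposited, and into 464 and 1033 (1.67% and 3.71%) after scaling. Leaving out a line changed the 7 calls among the 43 genes to 0 (WT line 1), 1 (WT line 2), 1 (KO line 26) or 7 (KO line 48).

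On day 4 under CT1.0, 10 of 18 S-phase genes were lower in KO and 0 higher, where 2.49% of all genes were lower and 12.4% higher. The class ran from -0.78 to -0.08 with a median of -0.45. UHRF1, which guides the maintenance of DNA methylation on newly copied DNA, had 54.2 and 56.8 TPM in WT and 30.1 and 33.9 TPM in KO. Its change was -0.78 (SE 0.22, adjusted p = 0.0237), and KO lay below WT in both libraries. CCNE1 changed by -0.75 (adjusted p = 0.0201). RRM2, the regulated subunit of ribonucleotide reductase, went from 119.9 and 116 TPM in WT to 63.9 and 76.1 TPM in KO, -0.75 (SE 0.21, adjusted p = 0.0254). FEN1 had 79.3 and 70.96 TPM in WT and 44.1 and 52.2 TPM in KO, -0.63 (SE 0.13, adjusted p = 0.00293). For RRM2 and FEN1 as well the genotypes did not overlap. The uncalled MCM7 and MCM3 were at -0.33 (adjusted p = 0.0958) and -0.11 (adjusted p = 0.579), and passed after scaling at -0.60 and -0.38.

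The mitotic class of that group had 1 higher gene of 19 and 0 lower, where 12.4% of all genes were higher and 2.49% lower. Its median of 0.08 was below that of all genes, given below, so the class as a whole was not higher than other genes. TOP2A, the topoisomerase that untangles sister chromatids, had 100.001 and 107 TPM in WT and 160.3 and 136 TPM in KO, 0.51 (SE 0.12, adjusted p = 0.0103). The WT level was the lowest of the 14 groups, and the KO level was within the range of the others. CENPE and CENPF, 2 kinetochore proteins, were higher by 1.12 and 0.72 without passing (adjusted p = 0.0948 and 0.149). CENPE stood at 4.69 and 7.13 TPM in WT and 16.2 and 11.7 TPM in KO. UBE2C was at 0.08 (adjusted p = 0.606) and CCNB1 at -0.24 (adjusted p = 0.0887).

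All genes had a median of 0.19 in that comparison, with 3453 higher and 694 lower, and of 0.01 after median-ratio scaling, with 1765 and 2547 (6.35% and 9.16%). Relative to the median gene, 15 of 18 S-phase genes fell (median -0.72), and 5 mitotic genes fell with none higher. The 5 were CCNB1, CCNB2, the passenger protein BIRC5, TPX2 and the proliferation antigen MKI67, at -0.39 to -0.58, while TOP2A stayed uncalled at 0.24. The lower S-phase level was thus present on both scales, and the mitotic direction was not. Leaving out a line changed the 13 calls to 0 (WT line 1), 1 (WT line 2), 8 (KO line 26) or 17 (KO line 48). Of the neural progenitor markers 4 of 10 were lower and 1 higher in the same libraries, with sums of 1117 and 1223 TPM (WT) and 703 and 893 TPM (KO). Of 7 surface ectoderm markers 3 were higher, from a list whose sum was highest in ES cells. Mitochondrial transcripts took 7.31% and 7.26% of the TPM in WT against 4.96% and 4.81% in KO. Ribosomal protein genes took 29.8% and 29.3% in WT against 27.5% and 28.1% in KO. Their part in the S-phase result was not tested. This comparison and the CT0.4 one rest on the 4 WT libraries that stood apart, which cannot be left out of it.

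On day 8 under CT1.0 S-phase genes were lower in KO as well: 13 of 18 fell and 0 rose, where 9.96% of all genes were lower and 4.34% higher. The class ran from -1.20 to -0.03, with a median of -0.56 beside -0.02 for all genes. UHRF1 had 62.9 and 55.97 TPM in WT and 18.3 and 35.01 TPM in KO, a change of -1.20 (SE 0.22, adjusted p = 0.00183). CCNE2 had 12.9 and 12.6 TPM in WT and 7.52 and 5.83 TPM in KO, -0.85 (SE 0.21, adjusted p = 0.0125). Both KO libraries were below both WT libraries for both genes, and the first KO value of UHRF1, line 26, was well below the second.

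MCM2, a subunit of the MCM2-7 helicase, had 128 and 119 TPM in WT and 62.1 and 80.4 TPM in KO, -0.79 (SE 0.12, adjusted p = 0.000404). MCM7 had 249.8 and 248 TPM in WT and 118 and 176 TPM in KO, -0.78 (SE 0.13, adjusted p = 0.000895). All 6 helicase subunits fell, the other four by 0.74 (MCM5), 0.70 (MCM4), 0.50 (MCM3) and 0.49 (MCM6), of which MCM6 did not pass after scaling (adjusted p = 0.0654). Of the nucleotide supply genes RRM2 and the thymidylate synthase TYMS fell by 0.74 and 0.42, and RRM1 was at -0.03 (adjusted p = 0.976). RRM2 and TYMS did not pass after scaling either (adjusted p = 0.0529 and 0.113). GINS2 of the active helicase fell by 0.69, PCNA by 0.59 and FEN1 by 0.53. The 5 genes that did not pass were RRM1, CDC45, the helicase loaders CDC6 and CDT1, and CCNE1, at -0.45 to -0.03.

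Of the mitotic class 3 of 19 fell, with a median of -0.16. CDC20, the activator of the anaphase-promoting complex, had 121 and 125 TPM in WT and 67.6 and 96.1 TPM in KO, -0.60 (SE 0.15, adjusted p = 0.011). PLK1 had 78.8 and 75.9 TPM in WT and 50.8 and 55.5 TPM in KO, -0.53 (SE 0.11, adjusted p = 0.00461). MKI67 had 53.9 and 56.3 TPM in WT and 36.2 and 42.9 TPM in KO, -0.47 (SE 0.11, adjusted p = 0.00932). In all 3 the genotypes did not overlap, and the uncalled UBE2C and CCNB1 were at -0.01 (adjusted p = 1) and -0.24 (adjusted p = 0.0895). KIF20A, a motor of cytokinesis, was at 0.25 as deposited and passed as higher only after scaling, at 0.37 (adjusted p = 0.0273).

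**Figure D3:**
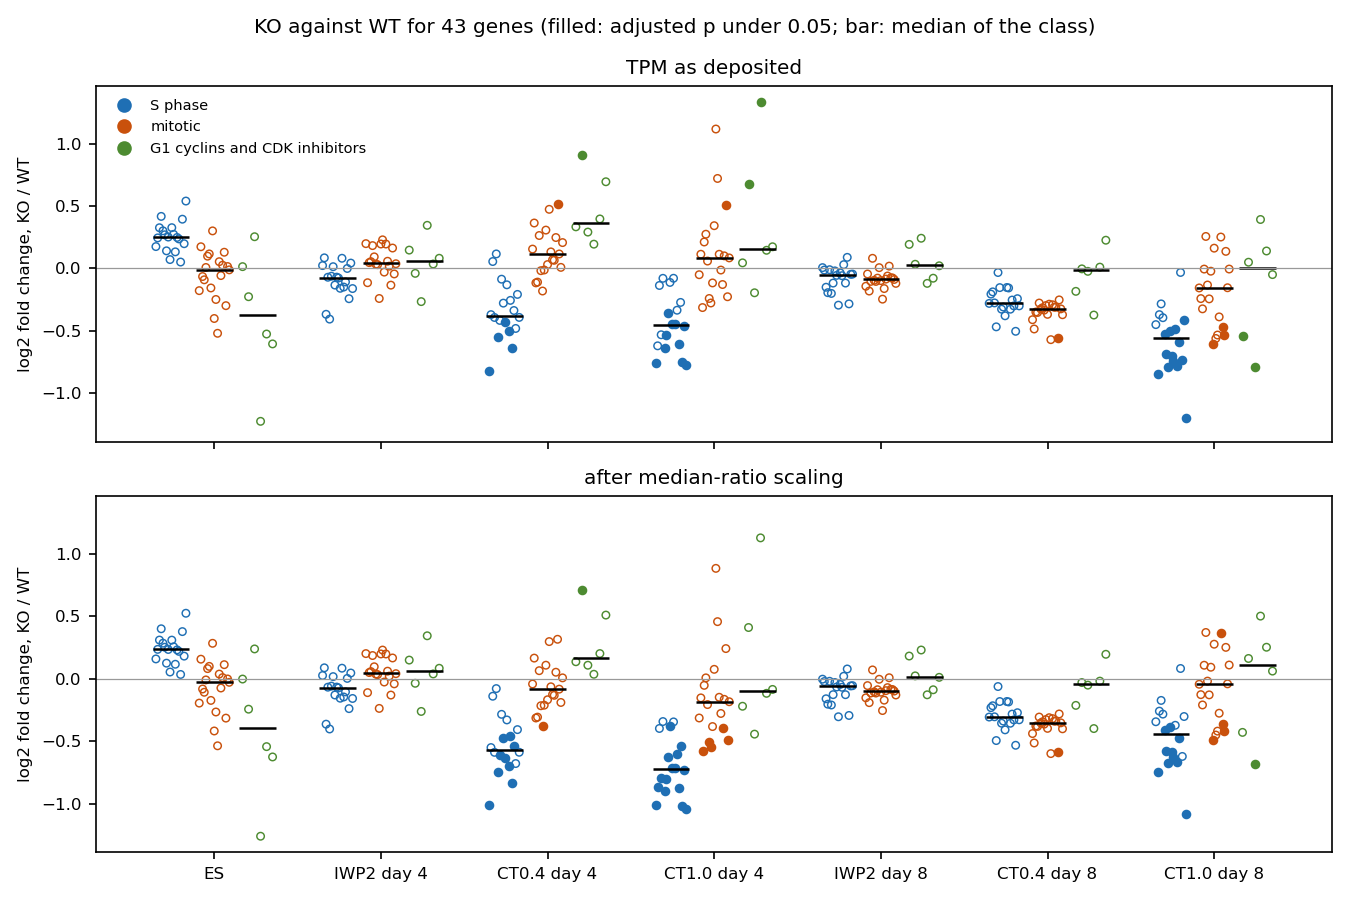
KO against WT difference of log2(TPM + 1) for the 43 genes in the 7 settings, as deposited (top) and after median-ratio scaling (bottom). Points are genes, filled where adjusted p was under 0.05, and bars are class medians. As deposited, the S-phase median lies at 0.25 in ES cells, near 0 under IWP2 and at -0.45 and -0.56 under CT1.0 on days 4 and 8. After scaling the CT1.0 median of day 4 lies below that of day 8.

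After median-ratio scaling 10 S-phase genes were lower on day 8 under CT1.0 (median -0.44), fewer than the 15 of day 4 on that scale, and all genes split into 1644 higher and 1890 lower (5.91% and 6.80%) in place of 1210 and 2779. The KO lines differed from each other: the S-phase median was -0.35 with line 26, the lower one, left out and -0.71 with line 48 left out. The 18 calls became 4 or 21 when KO line 26 or 48 was left out and 0 or 3 when WT line 1 or 2 was. The S-phase median without either WT line was -0.61 or -0.57. Fitted on the libraries compared alone, none of the 43 genes passed.

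Other measures moved in the same libraries. Neural progenitor markers summed to 1665 and 1762 TPM in WT and 752 and 1041 TPM in KO on day 8 under CT1.0, with 7 of 10 lower and 2 higher. Neuron markers summed to 803 and 1005 TPM in WT and 322 and 514 TPM in KO, with 4 of 12 lower. Surface ectoderm markers summed to 48.6 and 58.4 TPM in WT and 82.2 and 106 TPM in KO, with 3 of the 7 tested higher, and TP63 at 0 in WT line 2 and KO line 26. The same list summed to 639 to 714 TPM in ES libraries, so it does not mark surface ectoderm alone. Of the neural crest markers 2 of 8 were higher and 1 lower, with sums of 169 and 169.6 TPM (WT) and 115 and 125 TPM (KO). Mesendoderm markers summed to at most 1.62 TPM, with SOX17 and GATA4 at 0 in all 4 libraries, and pluripotency markers to 563 and 613 TPM (WT) and 586 and 592 TPM (KO). Ribosomal protein genes took 22.63% and 24.14% of the TPM in WT and 31.66% and 29.03% in KO. Mitochondrial transcripts took 7.29% and 7.20% in WT against 6.02% and 5.94% in KO, and neither share overlapped. Their part in the S-phase result was not tested.

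On day 8 under CT0.4, the S-phase class had no call (-0.28 median, 7 genes lower at an unadjusted p under 0.05, a threshold whose share of all genes is given below) and the mitotic class had 1, where 0.416% of all genes were called. PLK1 had 89.01 and 99.5 TPM in WT and 57.7 and 70.4 TPM in KO, -0.56 (SE 0.11, adjusted p = 0.0353), lower in both KO libraries. All 19 mitotic genes were below 0, at -0.57 to -0.25, with a median of -0.33 beside 0.01 for all genes. Of the 19, 13 had an unadjusted p under 0.05, where 4.30% of all genes were lower at that threshold. Summed mitotic TPM was 2137 and 2341 in WT and 1546 and 1964 in KO, where line 26 was the lower. The 43 genes had 9 calls without KO line 48 and 0 without any other line.

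**Figure D4:**
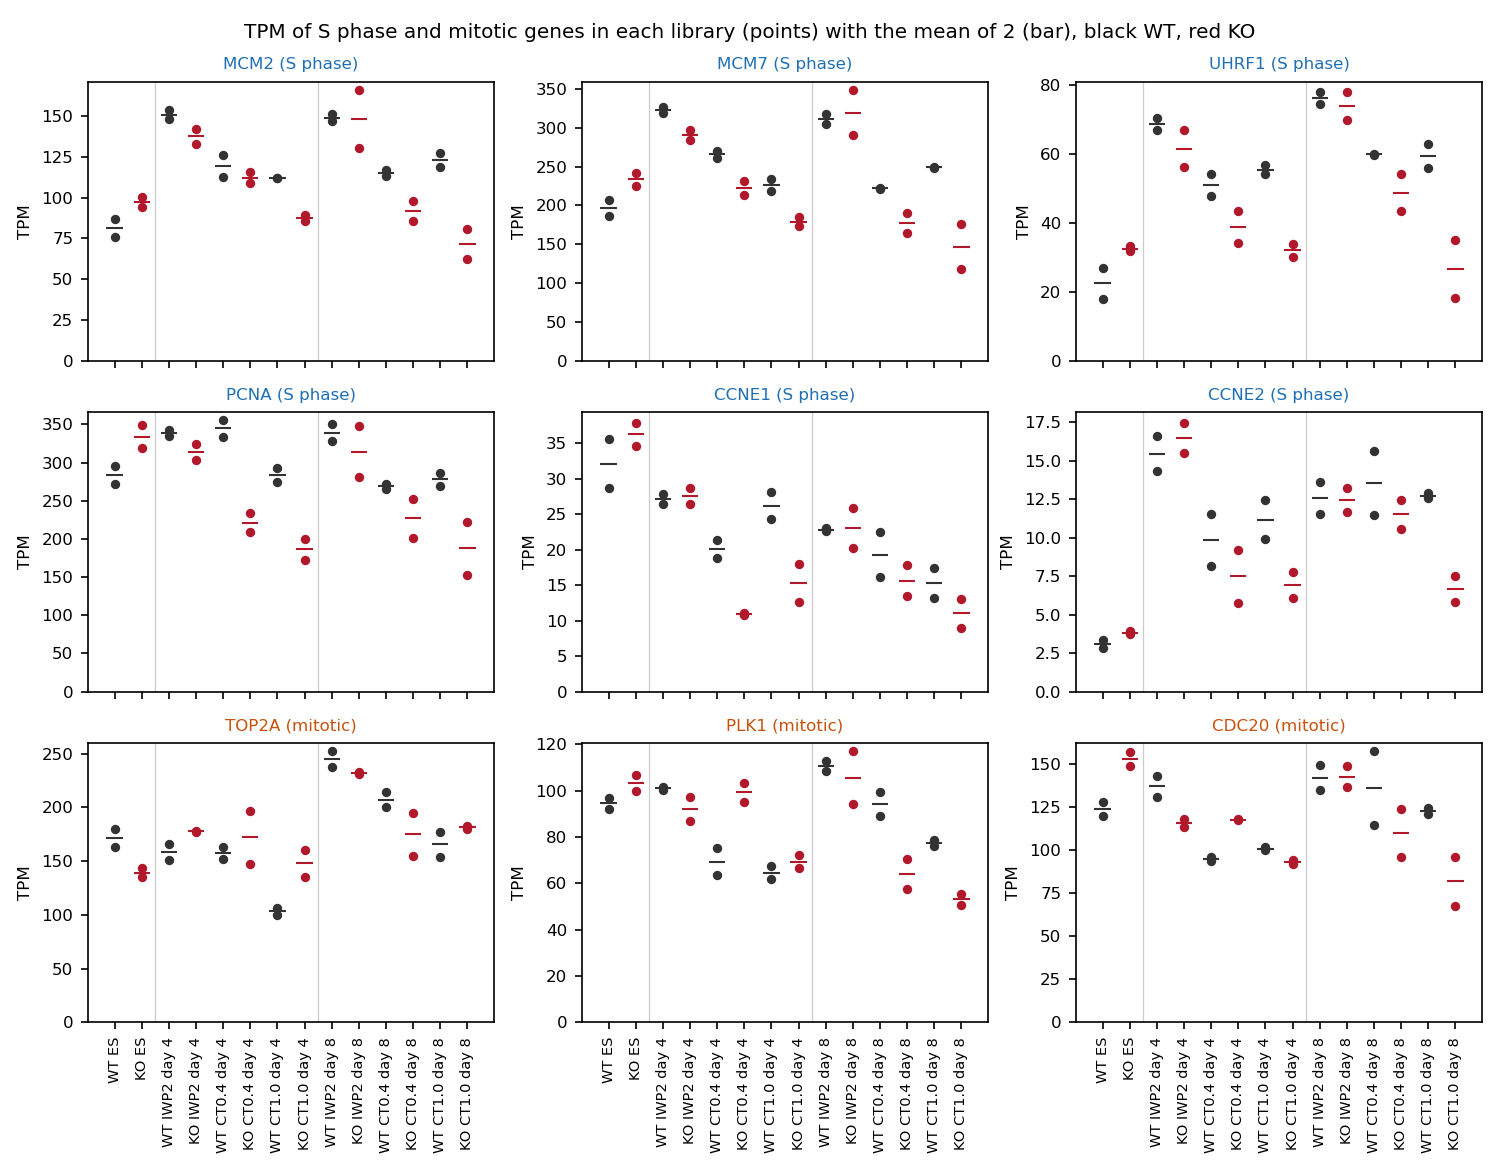
TPM of 6 S-phase genes and 3 mitotic genes in each library (points) with the mean of the 2 (bar), black WT and red KO. UHRF1 has 56.0 and 62.9 TPM in WT CT1.0 cells of day 8 and 18.3 and 35.0 TPM in KO, and PLK1 lies above WT in KO CT0.4 cells of day 4 and below it on day 8.

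Whether the KO effect differed from that under IWP2 was tested directly, in 4 contrasts that share the IWP2 libraries of their day. On day 8 the effect under CT1.0 was more negative for MCM2, by -0.77 (SE 0.17, adjusted p = 0.0198), and for MCM7, by -0.82 (SE 0.18, adjusted p = 0.0245), where 2.31% of all genes passed in that direction. MCM2 under IWP2 had 151 and 147 TPM in WT and 130.1 and 166 TPM in KO, and MCM7 had 318 and 305 and 291 and 348. Both genes overlapped between the genotypes under IWP2 and did not under CT1.0, and both passed after scaling (-0.65 and -0.69, where 1.31% of all genes did). UHRF1 was at -1.15 (adjusted p = 0.0517), just outside the threshold. The 2 calls became 0 without either WT line and 8 without KO line 48.

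The other 3 contrasts had no call as deposited, where 1.34% (CT0.4, day 4), 5.09% (CT1.0, day 4) and 0.147% (CT0.4, day 8) of all genes passed. At an unadjusted p under 0.05 they had 11, 12 and 3 of the 43 genes, and 13.7%, 19.7% and 6.60% of all genes. After scaling, 10 genes passed under CT1.0 on day 4, all more negative, of which 6 were S-phase genes (PCNA, MCM4, MCM6, TYMS, GINS2, FEN1) and 4 mitotic (CCNB1, CCNB2, BIRC5, TPX2). These 10 and MCM6 under CT0.4 did not pass as deposited in the main fit. After scaling 3.03% and 0.565% of all genes passed in that direction. With line means over the 3 labels, which make the line the replicate within a day, none of the 43 genes passed on day 4 or day 8 (0.856% and 0% of all genes). The means of a line on days 0, 4 and 8 entered that fit as independent, with 6 residual degrees of freedom. They average IWP2, where the KO against WT class medians were near 0, with CT0.4 and CT1.0. At an unadjusted p under 0.05, 8 S-phase genes were lower and 1 mitotic gene higher on day 4, and 9 S-phase and 10 mitotic genes were lower on day 8. Of all genes 2.72% and 5.41% were lower and 13.8% and 3.80% higher at that threshold. The medians of the line means were -0.30 and -0.30 for the S-phase class, 0.10 and -0.22 for the mitotic class and 0.12 and 0.00 for all genes.

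From ES cells to day 4, a subset of S-phase genes rose in WT cells, led by CCNE2 and UHRF1. The 6 comparisons share the ES libraries of each genotype, so they are given side by side. In WT, 8 S-phase genes rose under IWP2, 8 under CT0.4 and 6 under CT1.0, and 0, 1 and 2 fell, where 20.3%, 12.2% and 10.2% of all genes rose and 14.9%, 17.7% and 20.8% fell. CCNE2 had 3.34 and 2.83 TPM in WT ES cells and 16.6 and 14.3, 8.18 and 11.6, and 9.89 and 12.4 TPM under IWP2, CT0.4 and CT1.0. Its changes were 2.01, 1.40 and 1.57, each with SE 0.21, and every day 4 library was above both ES libraries. UHRF1 rose from 18.04 and 26.9 TPM by 1.60, 1.17 and 1.29. GINS2 rose by 1.04, 1.19 and 1.01, and TYMS by 0.84, 0.90 and 0.88. The abundant PCNA and MCM4 did not pass in WT (0.00 to 0.29), and after scaling MCM4 passed under CT0.4 and CT1.0, at 0.34 and 0.30.

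In KO cells 6 S-phase genes rose and 1 fell under IWP2, 3 rose and 10 fell under CT0.4, and 1 rose and 11 fell under CT1.0. The shares of all genes were 19.4%, 19.4% and 20.0% higher and 15.3%, 16.9% and 18.4% lower. CCNE1 had 37.9 and 34.6 TPM in KO ES cells and 10.8 and 11.02 TPM under CT0.4, -1.65 (SE 0.21, adjusted p = 6.59e-06). CDC6, a loader of the helicase, changed by -1.37 (SE 0.19, adjusted p = 1.67e-05) under CT1.0, from 77.9 and 67.96 to 23.4 and 32.5 TPM. CCNE2 rose in KO as well, by 1.85, 0.78 and 0.70, whereas UHRF1 passed under IWP2, at 0.90 (adjusted p = 0.00369), and was at 0.24 and -0.02 under CT0.4 and CT1.0.

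On day 4 the mitotic class held genes that rose and genes that fell from ES cells. The spindle checkpoint kinase BUB1 had 108 and 109.7 TPM in WT ES cells and 65.8 and 64.6 TPM under IWP2, and it fell in all 6 comparisons, by 0.51 to 1.06. CCNB2, a mitotic cyclin, rose in all 6, by 0.44 to 0.72. CENPE changed by -1.24 (adjusted p = 0.0385) and -1.35 (adjusted p = 0.0232) in WT under CT0.4 and CT1.0, in the libraries that stood apart. Of the 19 genes 3, 3 and 1 rose and 4, 6 and 8 fell in WT, in the same order of labels. Of all genes 20.3%, 12.2% and 10.2% rose there and 14.9%, 17.7% and 20.8% fell. In KO 5, 3 and 1 rose and 3, 3 and 7 fell, beside 19.4%, 19.4% and 20.0% of all genes higher and 15.3%, 16.9% and 18.4% lower. Scaling moved the medians of all genes in WT from 0.09, 0.00 and -0.05 to 0.00, 0.00 and 0.00, and 8, 10 and 8 S-phase genes then rose and 0, 1 and 1 fell. The scaled mitotic counts in WT were 1, 3 and 2 higher and 7, 5 and 7 lower, beside 15.1%, 14% and 14% of all genes higher and 19.4%, 17.5% and 18.3% lower. Scaling moved the medians of all genes in KO from 0.07, 0.06 and 0.07 to 0.00, 0.00 and 0.00, and 6, 3 and 1 S-phase genes then rose and 4, 10 and 11 fell. The scaled mitotic counts in KO were 2, 2 and 1 higher and 6, 5 and 11 lower, beside 14.8%, 16.2% and 17.8% of all genes higher and 19.3%, 20.3% and 21.4% lower. BUB1 fell and CCNB2 rose in all 6 comparisons on that scale too. The 17, 21 and 20 calls among the 43 genes in WT became 10, 5 and 9 when WT line 1 was dropped from the fit, and 10, 6 and 11 when WT line 2 was.

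From day 4 to day 8 under IWP2, 7 of 19 mitotic genes rose in WT, where 8.97% of all genes rose and 4.85% fell. Of the S-phase genes 1 rose and 1 fell. CDK1, the kinase of mitosis, had 133 and 114 TPM on the earlier day and 199 and 201 TPM on the later, 0.70 (SE 0.13, adjusted p = 0.00183). TOP2A had 166 and 151 and then 238 and 252 TPM, 0.62 (SE 0.12, adjusted p = 0.00252), and the days did not overlap for either gene. After scaling 5 mitotic genes passed as higher, against 6.94% of all genes. The scaled S-phase sums in WT were 2358 and 2415 on day 4 and 2164 and 2167 on day 8, lower on the later day without overlap. In KO 4 mitotic genes rose under IWP2 (6.87% of all genes), with MKI67 at 0.53 (adjusted p = 0.00551). Without WT line 1 or 2 the 13 calls in WT became 0 or 1, and the 9 in KO became 1 without either WT line and 6 or 5 with KO line 26 or 48 left out.

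Under CT0.4 the mitotic genes split by genotype and by scale. In WT 7 rose and 2 fell as deposited (all genes: 19.7% and 5.08%), and 0 rose and 6 fell after scaling (11.3% and 11.1%), which moved the median of all genes from 0.18 to 0.00. In KO 0 rose and 8 fell (all genes: 14.4% and 7.07%), and 10 fell after scaling (9.75%). BUB1B, a spindle checkpoint protein, had 155 and 156 TPM on the earlier day and 71.9 and 98.6 TPM on the later in KO, -0.88 (SE 0.15, adjusted p = 0.000276). The S-phase class had 5 lower and 1 higher in WT and 3 lower in KO, or 10 lower and 0 higher in WT and 7 lower in KO after scaling. MCM3 led in both as deposited, at -0.66 (adjusted p = 0.000326) and -0.69 (adjusted p = 0.000231). The 20 calls in WT became 3 without either WT line, and the 15 in KO became 9 without KO line 26.

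Under CT1.0, 5 mitotic genes rose in WT (all genes 12.2%, median 0.17), and 3 rose and 3 fell after scaling (5.07% and 6.02%). CENPE led at 2.05 (SE 0.43, adjusted p = 0.00378), from 4.69 and 7.13 to 30.9 and 23.7 TPM, again against libraries that stood apart on day 4. S-phase calls in WT went from 2 lower (CCNE1 and MCM4, where 2.45% of all genes fell) to 10 lower after scaling. In KO 4 S-phase genes fell (all genes 6.87%): MCM5, MCM4, MCM3 and CDT1. MCM5 went from 81.5 and 95.9 to 42.8 and 53.004 TPM, -0.88 (SE 0.14, adjusted p = 0.00062), with no overlap between the days. The 9 calls in WT became 0 without either WT line, and the 7 in KO became 3 without KO line 26 and 4 without either WT line.

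Between the labels within WT, most calls were lower under CT0.4 or CT1.0 than under IWP2, and on day 4 this depended on the scale. The CT0.4 and CT1.0 comparisons of a day share its IWP2 libraries. On day 4, 2 S-phase and 5 mitotic genes were lower under CT0.4 and 5 and 9 under CT1.0, with none higher, where 10.6% and 17.2% of all genes were lower. The medians of all genes were -0.14 and -0.22. After scaling, 6 mitotic genes were higher and 1 lower under CT0.4, 2 higher and 1 lower under CT1.0, and 1 S-phase gene was higher under each. Of all genes 6.39% and 6.44% were then higher and 5.23% and 5.56% lower. CENPF was lower under CT1.0 on both scales, at 32.9 and 49.3 TPM against 94.4 and 112 TPM, -1.33 (SE 0.32, adjusted p = 0.00706). The 9 and 16 calls among the 43 genes became 0 and 1 with WT line 1 left out, and 1 and 0 with WT line 2 left out.

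On day 8 genes of both classes were lower in WT under CT0.4 and CT1.0 than under IWP2, on both scales. Under CT0.4, 4 S-phase genes, all helicase subunits (MCM2, MCM3, MCM6, MCM7), and 5 mitotic genes were lower, where 5.89% of all genes were. Under CT1.0, 5 S-phase and 11 mitotic genes were lower (7.82% of all genes), or 2 and 6 after scaling (4.80%). RRM2 had 192 and 168 TPM under IWP2 and 94.3 and 76.8 TPM under CT1.0, -1.07 (SE 0.21, adjusted p = 0.00267). CDK1 had 199 and 201 and 107 and 118 TPM, -0.83 (SE 0.13, adjusted p = 0.000358), and KIF20A changed by -0.74 (SE 0.10, adjusted p = 5.5e-05). For RRM2 and CDK1 both CT1.0 libraries were below both IWP2 libraries. The 12 calls under CT0.4 became 1 without either WT line, and the 16 under CT1.0 became 1 and 2 without WT line 1 and 2.

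The D cyclins, which link growth signals to the G1 kinases, each had a pattern of their own. CCND1 stood at 42.2 and 49.8 TPM in WT ES cells and reached 131 and 143 TPM in WT CT0.4 cells of day 8, the highest group. From day 4 to day 8 it rose in WT by 1.17, 1.34 and 0.78 under IWP2, CT0.4 and CT1.0, and in KO by 1.21 and 0.83 under IWP2 and CT0.4. After scaling these rises were 1.07, 1.04 and 0.50 (WT) and 1.11 and 0.69 (KO), all 5 past the threshold. Under CT1.0 the KO change was 0.19 (adjusted p = 0.561), and on day 8 KO lay below WT there, at 53.6 and 78.9 against 99.5 and 91.1 TPM, -0.54 (SE 0.17, adjusted p = 0.0413). That last call did not pass after scaling (adjusted p = 0.0773). In WT cells CCND1 was higher under CT0.4 than under IWP2, where it had 86.5 and 71.6 TPM on day 8, by 0.79 (SE 0.17, adjusted p = 0.00409), and on day 4 by 0.62 (adjusted p = 0.0221) under CT0.4 and 0.66 (adjusted p = 0.0107) under CT1.0. These 3 differences passed on both scales.

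CCND2 differed between the labels in the other direction. In WT cells of day 8 it had 53.03 and 58.6 TPM under IWP2, 8.58 and 11.5 TPM under CT0.4 and 39.5 and 37.95 TPM under CT1.0. CT0.4 was lower than IWP2 by 2.37 on the log2 scale (SE 0.16, adjusted p = 1.63e-08), and the KO libraries of that group were as low, at 9.96 and 9.88 TPM. On day 4 CCND2 was higher in KO under CT0.4, as above, and under CT1.0, at 61.8 and 61.8 against 34.4 and 42.8 TPM, 0.67 (SE 0.16, adjusted p = 0.0101), or 0.41 after scaling without passing (adjusted p = 0.0863). CCND3 was the least abundant D cyclin by its mean level per length. On day 8 under CT1.0 it had 13.4 and 13.95 TPM in WT and 6.46 and 8.68 TPM in KO, -0.79 (SE 0.20, adjusted p = 0.0147), and it passed on both scales.

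Of the inhibitors, CDKN1A rose from day 4 to day 8 in WT under each label. Under IWP2 it had 4.78 and 4.14 TPM on the earlier day and 18.1 and 17.4 TPM on the later, and under CT1.0 2.41 and 3.09 and 14.5 and 16.8 TPM. The changes were 1.78, 2.10 and 2.15 under IWP2, CT0.4 and CT1.0, each with SE 0.42, and after scaling 1.68, 1.84 and 1.94, all 3 passing. In KO they were, as deposited, 1.32, 1.54 and 1.21, of which CT0.4 passed. On day 4 under CT1.0 KO had 10.1 and 6.98 TPM against 2.41 and 3.09 TPM in WT, 1.33 (SE 0.42, adjusted p = 0.0428), without overlap. That call did not pass after scaling (1.13, adjusted p = 0.0832). In KO ES cells the 2 libraries differed widely, at 1.01 and 5.81 TPM.

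CDKN1B and CDKN1C rose from ES cells to day 4. CDKN1B had 23.6 and 19.5 TPM in WT ES cells, 14.3 and 14.9 TPM in KO ES cells and 28.8 to 47.8 TPM in all later libraries, so ES cells did not overlap with the rest. CDKN1C was highest in the CT0.4 groups of day 8, at 31.99 and 33.2 TPM in WT and 37.1 and 39.5 TPM in KO, and lowest in KO ES cells, at 3.42 and 6.58 TPM. On day 4 it rose over ES cells in WT by 0.80 under IWP2 and 1.51 under CT1.0, with 0.33 (adjusted p = 0.301) under CT0.4, and in KO by 1.48, 1.63 and 2.29. Neither gene passed in a KO against WT comparison.

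**Figure D5:**
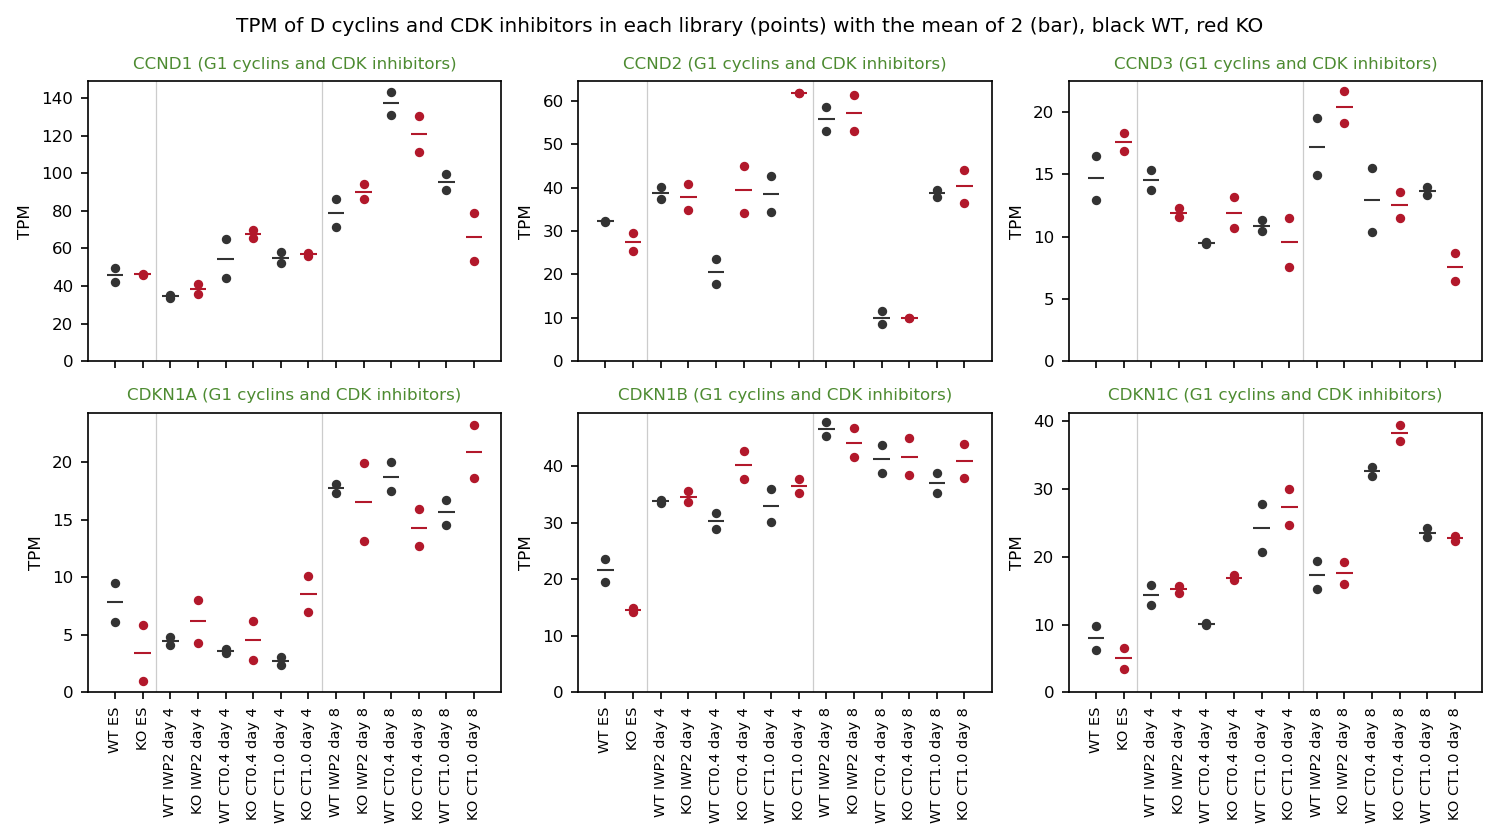
TPM of 3 D cyclins and 3 inhibitors of cyclin-dependent kinases in each library (points) with the mean of the 2 (bar), black WT and red KO. CCND2 falls to 8.58 to 11.5 TPM in the CT0.4 groups of day 8, and CDKN1A is at 12.7 TPM or more in every library of day 8 and at most 10.1 TPM before.

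The rest of the pathway was taken from lists of known cell cycle genes without the 43. The counts of these lists stand beside the shares of all genes in the KO against WT comparisons under CT1.0. On day 4 those were 12.4% higher and 2.49% lower as deposited and 6.35% and 9.16% after scaling, and on day 8 4.34% and 9.96% as deposited. Of 29 other S-phase genes 13 were lower and 0 higher in KO on day 8 under CT1.0, with a median of -0.44. They were led by WDR76, at -0.94 (adjusted p = 0.00476), CLSPN of the replication checkpoint, at -0.76 (adjusted p = 0.00194), and RFC2 of the clamp loader, at -0.74 (adjusted p = 0.000989). On day 4 under CT1.0 7 were lower and 1 higher, the latter RAD51AP1, a recombination factor, at 0.66 (adjusted p = 0.00111). Of 40 other G2 and mitosis genes 9 were higher and 1 lower on day 4 under CT1.0, led by the kinetochore protein NUF2 at 1.18 (adjusted p = 0.00116), and 1 was higher and 7 lower on day 8. After scaling the day 4 splits were 4 higher and 10 lower for these genes and 1 higher and 15 lower for the other S-phase genes.

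Of the 24 other G1 regulators tested, 11 were lower and 0 higher in KO on day 8 under CT1.0. CDK4, the partner of the D cyclins, had 323 and 317 TPM in WT and 145 and 201 TPM in KO, -0.90 (SE 0.14, adjusted p = 0.000628), and E2F2 and RBL1, an E2F factor and a retinoblastoma family protein, were at -0.86 (adjusted p = 0.0115) and -0.82 (adjusted p = 0.0161). Of 20 p53 target genes, other than CDKN1A, 8 were higher and 0 lower in KO on day 4 under CT1.0, where 12.4% of all genes were higher, with a median of 0.47 beside 0.19 for all genes. GADD45A, a growth arrest gene, had 4.28 and 3.17 TPM in WT and 12.8 and 9.42 TPM in KO, 1.36 (SE 0.17, adjusted p = 0.000107). After scaling 3 were higher and 0 lower on day 4, beside 6.35% of all genes higher. On day 8 3 of the 20 were higher and 2 lower as deposited, beside 4.34% and 9.96% of all genes. Of 20 pseudogene copies of the 43 genes in the table, UBE2CP2, UBE2CP1 and CDC20P1 reached 10.5, 2.81 and 2.73 TPM and the others at most 1.12 TPM, so the counting could have split reads shared with UBE2C and CDC20.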

How the data were processed

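The deposited table holds TPM values per gene for 28 libraries of poly(A) RNA, which the authors made with CASAVA 1.7, Salmon 0.8.2 and the build hg38, per the submitters' processing notes. The gene annotation used is not stated in these sources. Reads came from HiSeq2000 or X-ten runs, per the labels' protocols, with no label tying a library to either. TPM keeps no depth, so the depth is unknown and no counting error was computed.

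Values were analysed as log2(TPM + 1) with limma 3.58.1 in R 4.3.3. The 27912 of 58219 genes with at least 1 TPM in at least 2 libraries were kept. One model with a mean for each of the 14 groups was fitted to all 28 libraries (14 residual degrees of freedom, trended variance), since a group has 2 libraries. The p-values were adjusted by Benjamini and Hochberg over all genes tested within each of 29 comparisons, with a threshold of 0.05, and a fold change on this scale understates changes of low genes. An exact permutation test of 2 against 2 libraries cannot go below p = 0.333 and was not used. The fit was tested on simulated data.

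Median-ratio factors computed from the TPM columns served as the scaling check. Other alternatives were a pseudocount of 0.1, no filter, only the libraries compared, the line number as a replicate block, leaving out each line, and leaving out the 4 WT libraries that stood apart. Deviations from group means of same-numbered libraries were compared, and 0 of 21 WT pairs and 8 of 21 KO pairs of groups correlated above 0.1. The main fit did not pair the samples by number and took libraries of a line as independent. For KO this left out a difference between the lines. In every KO group of days 4 and 8 the S-phase sum of line 26 was below that of line 48, and in ES cells above it.

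The genes and lists were chosen with earlier results of these data known. In each comparison up to 4 called genes of a class with the largest change and up to 2 uncalled genes with the highest mean TPM are named; on day 8 under CT1.0 all called genes are. Genes named beyond this rule were chosen after their values were seen. The cell cycle, p53 target and marker lists came from general knowledge, and 3 symbols were matched through gene identifiers.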

Additional observations from a re-analysis of the deposited data

Results flagged for a closer look

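The KO against WT difference on day 8 was tested for dependence on the culture label, and 2 genes of the replicative helicase passed. It was lower under CT1.0 than under IWP2 for MCM2 by a log2 difference of -0.77 and for MCM7 by -0.82 (limma, adjusted p = 0.0198 and 0.0245). Of all genes 2.31% passed in that direction, or 1.31% after scaling. The effect itself was -0.02 under IWP2 and -0.79 under CT1.0 for MCM2, and 0.03 and -0.78 for MCM7, with both KO CT1.0 libraries below both WT libraries. With only the libraries compared neither gene passed (limma, adjusted p = 0.232 and 0.27). The differences were -0.74 and -0.84 without WT line 1 and -0.80 and -0.79 without WT line 2. Both calls depended on having both WT lines in the fit.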

How the results depend on the processing

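TPM tables give no depth, and 2 libraries a group leave the spread to the shared fit, so the counts of calls among the 43 genes moved with which libraries entered it. Of 186 calls of named genes none changed direction under the alternatives run, but these were the calls with the largest changes. Dropping the filter, adding the replicate block or using only the libraries compared leaves the difference itself the same, so no reversal was possible there. Of the 186, 180 passed with a pseudocount of 0.1, 167 without the filter, 149 after median-ratio scaling, 182 with the replicate block and 67 with only the libraries compared. The causes were not tested, beyond the smaller number of libraries in the last setting. Many of these calls were also lost when a WT line was left out, and counts per comparison are given below.

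Without the filter, KO against WT under CT0.4 on day 4 had 4 calls in place of 7. Median-ratio scaling gave 11 there and 20 under CT1.0 on day 4 (13 as deposited), 18 for WT CT1.0 day 8 against day 4 (9), 6 and 8 between CT1.0 and IWP2 in WT on days 4 and 8 (16 each), and 1 and 10 for the KO effect under CT0.4 and CT1.0 against IWP2 on day 4 (0 each). With only the libraries compared, KO against WT had 0 calls under CT0.4 and 1 under CT1.0 on day 4 and 0 under both on day 8. Day 4 against ES had 7 for WT CT0.4, 12 for WT CT1.0 and 15 for KO CT0.4. Day 8 against day 4 had 2, 8 and 3 in WT and 0, 2 and 0 in KO under IWP2, CT0.4 and CT1.0. WT CT0.4 and CT1.0 against IWP2 had 0 and 6 on day 4 and 3 and 8 on day 8, and the KO effect under CT1.0 against IWP2 had 1 on day 4 and 0 on day 8.

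With the replicate block the KO effect against IWP2 had 2 calls under CT0.4 and 3 under CT1.0 on day 4 and 5 under CT1.0 on day 8, and the other 26 comparisons stayed within 1.5 times their count. The WT numbers were not shown to pair the libraries, and for KO 8 of 21 pairs of groups correlated above 0.1.

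Leaving out each line in turn, KO against WT had 0 to 1 calls in ES cells, 0 to 0 under IWP2 on either day, 0 to 7 and 0 to 17 under CT0.4 and CT1.0 on day 4, and 0 to 9 and 0 to 21 on day 8. The line means had 0 to 0 on both days. Day 4 against ES had 10 to 23, 5 to 24 and 9 to 27 in WT and 13 to 16, 21 to 22 and 20 to 26 in KO, under IWP2, CT0.4 and CT1.0. Day 8 against day 4 had 0 to 16, 3 to 23 and 0 to 12 in WT and 1 to 6, 9 to 15 and 3 to 8 in KO. WT CT0.4 and CT1.0 against IWP2 had 0 to 10 and 0 to 20 on day 4 and 1 to 19 and 1 to 21 on day 8. The KO effect against IWP2 had 0 to 1 and 0 to 4 on day 4 and 0 to 0 and 0 to 8 on day 8, under CT0.4 and CT1.0. A lone library left in a group was assumed to vary like the other groups. Without the 4 WT day 4 libraries that stood apart, KO against WT on day 8 kept counts of 1 under CT0.4 and 18 under CT1.0.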
